A study of Mus musculus with 36 samples.

Results

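The genes examined here encode the complement and coagulation factors that the liver secretes into plasma, together with their inhibitors and the fibrinolytic system. They were taken as a list of 37 gene symbols, and each was matched by its platform symbol or a current synonym to the probe sets of a whole-genome mouse expression array. Of the 37, 34 had at least 1 probe set naming that gene alone, 46 probe sets in all among 45101 on the array, and all 34 passed the filter on low signal that left 13188 genes. C4b was reached only through a probe set shared with its neighbour C4a, and that probe set is described separately. C3 and Cpb2 were not analysed here.

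Complement is a cascade of plasma proteases and binding proteins: the classical and lectin pathways (C2, C4b, Mbl1, Mbl2, Masp1, Masp2) and the alternative pathway (Cfb) converge on C3 and then on C5, which the mouse gene Hc encodes, and C6, C8 and C9 form the terminal pore. Coagulation runs through the contact system (F12, Kng1, Klkb1), the vitamin K-dependent proteases (F2, F7, F9, F10), F11 and the cofactor F5 to thrombin, which converts fibrinogen (Fga, Fgb, Fgg) to fibrin. Antithrombin (Serpinc1), heparin cofactor II (Serpind1) and protein C with protein S (Proc, Pros1) restrain it, and plasmin, made from Plg, dissolves the clot. Hepatocytes are the main source of most of these proteins, and several of them, fibrinogen and the mannose-binding lectins among them, are acute-phase proteins whose genes respond to interleukin 6.

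Livers came from female mice of 6 to 8 weeks, fasted for 4 to 5 h, with 4 mice and 4 Affymetrix arrays in each of 9 groups. The 5 mutant groups carry alleles of neural tube defect lines, and each was set against the wild type group that the labels assign to it. Heterozygotes for Pax3 Sp2H, labelled responsive to dietary folic acid, and heterozygotes for Apob tm1Unc, labelled resistant, share 1 control group of C57BL/6J (B6) wild types. Heterozygotes for Lrp6 Cd (responsive) and for Vangl2 Lp (resistant) have wild types of their own stock, called Cd and Lp wild types below. Mice of the ct stock, a random-bred closed colony in which every animal is taken as ct/ct and which is labelled resistant, were set against CBA/CaJ (CBA) wild types, so that the ct alleles and the remaining difference between these stocks cannot be told apart. No label says that the mice of a group were littermates of their controls, and each value is a whole-liver signal in which fewer cells of a type and less RNA per cell cannot be told apart.

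The values are MAS5 signals, a linear intensity in arbitrary units that every array's scaling brings to a trimmed mean of 500, and levels are compared only within a probe set. Differences are of log2(signal + 23), given with their standard error (SE), and a gene is called where the limma test over all 36 arrays gave a Benjamini-Hochberg adjusted p under 0.05 across 13188 genes. GAPDH control probe sets, whose 3'/5' signal ratio grows as RNA is degraded or poorly labelled, gave 0.729 to 0.956 on 34 arrays, 52.5 on CBA replicate 4 and 1.72 on ct replicate 3. CBA replicate 4 and ct replicate 3 stand apart in many members, so results that rest on them are given with all 36 arrays and again with the other 34. Those 34 were not alike in other quality values. The actin 3'/5' ratio was 2.93 on Lp heterozygote replicate 4, 2.81 on Lp wild type replicate 4 and 2.65 on ct replicate 2. On ct replicate 3 it was 3.71. The median correlation with other arrays was 0.922 on Lp heterozygote replicate 4 and 0.926 on ct replicate 2, against 0.912 on ct replicate 3. No hepatocyte marker of the 7 tested was at 0 in any group. The lowest signal of the whole series was 0.0712, so this could not bear on cell content.

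The promoters of 5 members are shown because the results turn on these genes: F12 and Hc had the largest called differences among members with probe sets of their own, and the 3 fibrinogen genes are neighbours whose values are compared further on. Each is the RefSeq sequence of GRCm38.p6, the C57BL/6J reference, over 300 bases, from 250 before the annotated start to 50 after it, written 5' to 3' on the gene's strand. Capitals mark matches on either strand to the motifs of HNF1 (GTTAATNAT), HNF4 (CAAAGTCCA), C/EBP (TTGCNNAA) and the interleukin 6 response element (CTGGGAA), and on the written strand to TATAAA.
F12 (chr13:55426755-55427054, minus strand): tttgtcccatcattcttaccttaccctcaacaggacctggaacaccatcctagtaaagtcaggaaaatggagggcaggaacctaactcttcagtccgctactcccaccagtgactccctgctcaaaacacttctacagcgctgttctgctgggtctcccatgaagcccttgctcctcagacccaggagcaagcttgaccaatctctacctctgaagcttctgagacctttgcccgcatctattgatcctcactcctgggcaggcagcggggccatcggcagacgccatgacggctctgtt
Hc (chr2:35061363-35061662, minus strand): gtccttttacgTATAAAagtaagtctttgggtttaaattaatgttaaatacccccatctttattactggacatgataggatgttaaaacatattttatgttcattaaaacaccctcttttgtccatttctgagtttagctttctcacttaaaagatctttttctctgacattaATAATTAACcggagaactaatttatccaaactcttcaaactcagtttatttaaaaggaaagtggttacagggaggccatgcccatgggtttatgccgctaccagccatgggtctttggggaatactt
Fgg (chr3:83007474-83007773, plus strand): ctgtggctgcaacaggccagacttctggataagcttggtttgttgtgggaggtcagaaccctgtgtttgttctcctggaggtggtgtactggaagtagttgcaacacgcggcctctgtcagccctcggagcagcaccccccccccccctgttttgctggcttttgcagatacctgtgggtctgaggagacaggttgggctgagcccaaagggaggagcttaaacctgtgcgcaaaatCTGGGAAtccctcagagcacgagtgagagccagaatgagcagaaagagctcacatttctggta
Fga (chr3:83025903-83026202, plus strand): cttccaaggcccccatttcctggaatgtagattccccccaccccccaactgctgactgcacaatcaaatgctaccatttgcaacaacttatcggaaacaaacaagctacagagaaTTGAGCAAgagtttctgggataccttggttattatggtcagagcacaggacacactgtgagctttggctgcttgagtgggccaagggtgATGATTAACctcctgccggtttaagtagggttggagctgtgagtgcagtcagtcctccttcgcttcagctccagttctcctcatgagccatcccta
Fgb (chr3:83049814-83050113, minus strand): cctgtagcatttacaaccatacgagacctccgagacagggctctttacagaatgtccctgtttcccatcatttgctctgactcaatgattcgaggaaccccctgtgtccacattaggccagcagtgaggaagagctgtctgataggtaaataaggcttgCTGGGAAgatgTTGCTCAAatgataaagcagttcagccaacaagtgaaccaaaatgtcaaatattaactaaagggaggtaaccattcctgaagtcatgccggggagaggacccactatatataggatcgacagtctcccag
The F12 window held none of these motifs. The Hc window held an HNF1 match and a TATAAA, the Fgg window an interleukin 6 element, the Fga window an HNF1 and a C/EBP match, and the Fgb window both a C/EBP match and an interleukin 6 element. Promoters were listed for 27 of the 34 tested members. The HNF1 motif occurred in 4 of these 27 genes (C4bp, F13b, Fga and Hc), against 0.801% of 32851 mouse promoters of the same table, the C/EBP motif in 7 against 10.8%, the interleukin 6 element in 6 against 11.1%, TATAAA in 2 against 8.32%, and the HNF4 motif in 0 against 0.475%. A match here is a run of letters and no evidence that the factor binds.

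Member calls were most numerous in ct against CBA. No member passed the test in heterozygotes for Pax3 Sp2H (all genes 0.0%), Lrp6 Cd (0.0%), Apob tm1Unc (0.538%) or Vangl2 Lp (0.0303%). At an unadjusted p under 0.05 in limma, these 4 comparisons held 11, 0, 6 and 1 of the 34 members, where the shares over all genes were 5.32%, 2.09%, 10.9% and 7.07%. In ct against CBA, 10 members were called, 9 higher and 1 lower, against 6.65% of all genes in either direction (3.4% higher and 3.25% lower). Among wild types, 1 member differed between CBA and B6 (all genes 7.73%), 1 between Cd and B6 (3.89%), 0 between Lp and B6 (2.08%), 3 between Cd and CBA (5.07%), 1 between Lp and CBA (4.61%) and 0 between Cd and Lp (2.43%); the comparisons with 0 held 1 (Lp and B6; all genes 13.2%) and 2 members (Cd and Lp; 13.4%) at an unadjusted p under 0.05. With 34 arrays the counts were 1 for Apob (all genes 2.46%), 2 for ct (1.79%), 1 for CBA and B6 (6.1%), 3 for Cd and B6 (7.77%), 2 for Cd and CBA (5.27%), 1 for Lp and CBA (3.4%) and 2 for Cd and Lp (5.44%), and 0 for Lp and B6 (5.42%), Lp heterozygotes (0.212%), Pax3 (0.0%) and Cd heterozygotes (0.0%).

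The moderated F test over the 4 wild type groups called F12 and C8b, 2 of 34 against 10.7% of all genes, and with 34 arrays F11 as well (limma adjusted p = 0.038), 3 of 34 against 14.6%. The F test of whether the 5 mutant effects differ called 5 of 34, against 2.46% of all genes: Hc (limma adjusted p = 0.0041), F12 (0.0044), C8b (0.013), Serpinc1 (0.042) and F11 (0.044). With 34 arrays it called 8 of 34, against 4.06% of all genes: these 5 and C9 (0.016), Mbl2 (0.032) and Fgg (0.044).

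**Figure D1:**
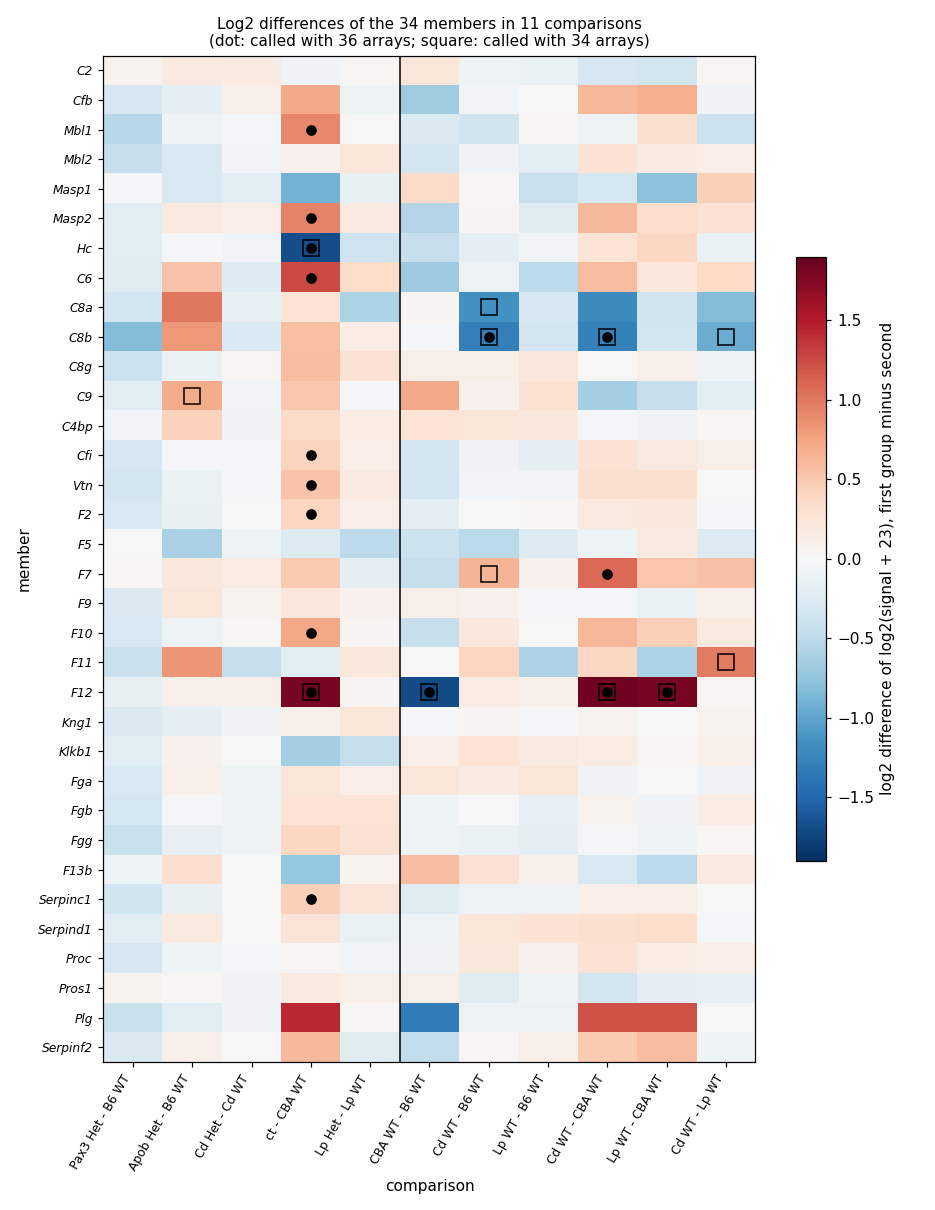
Log2 differences of log2(signal + 23) for the 34 members (rows, ordered by role) in 5 mutant comparisons (left of the line) and 6 comparisons of wild type groups (right of it), each the group named first minus the group named second, 4 arrays each. Dots mark calls with all 36 arrays and squares calls with the 34 arrays left after ct replicate 3 and CBA replicate 4; most cells are pale, and F12, Hc and C8b hold the dark cells that carry both marks.

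F12, the zymogen of factor XIIa that starts the contact pathway, was low in CBA livers and in no other group. Its signals were 3710, 3482, 3711 and 879 in CBA livers, against 7924, 8383, 8644 and 8487 in B6 livers. The ct livers, which CBA serves as control, had 9644, 8211, 10052 and 8201. No CBA array reached the lowest array of any other group, and the 32 arrays of the other 8 groups lay between 6343 and 10772. CBA replicate 4 was the lowest of all.

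F12 was 0.308 times as high in CBA as in B6 (log2 difference -1.70 ± 0.25 SE, limma adjusted p = 1.5e-05), and 0.436 times without the 2 doubtful arrays (-1.20 ± 0.13, adjusted p = 8e-08). In ct it was 3.50-fold higher than in CBA (1.81 ± 0.25, adjusted p = 1e-05), and 2.37-fold without those arrays (1.25 ± 0.14, adjusted p = 2.7e-07). The Cd and Lp wild types exceeded CBA by 1.84 and 1.80 on the log2 scale (1.34 and 1.30 with 34 arrays). The size depended on CBA replicate 4 and the direction did not. All 4 comparisons share the CBA arrays, and the ct livers lay within the range of the other stocks. In fits limited to the 8 arrays of each comparison, where CBA replicate 4 widens the spread, all 4 F12 calls were lost (adjusted p = 0.203 in ct).

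The other contact-system members were not called in any comparison. Kng1, high molecular weight kininogen, differed by at most 0.27 on the log2 scale in size in any of the 11 comparisons. Klkb1, plasma prekallikrein, had 8550, 4596, 2502 and 5596 in ct livers, against 8232, 4568, 6661 and 13510 in CBA livers (log2 difference -0.65 ± 0.29, adjusted p = 0.152). The lowest value was ct replicate 3 and the highest CBA replicate 4, and without these arrays the difference was -0.06.

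**Figure D2:**
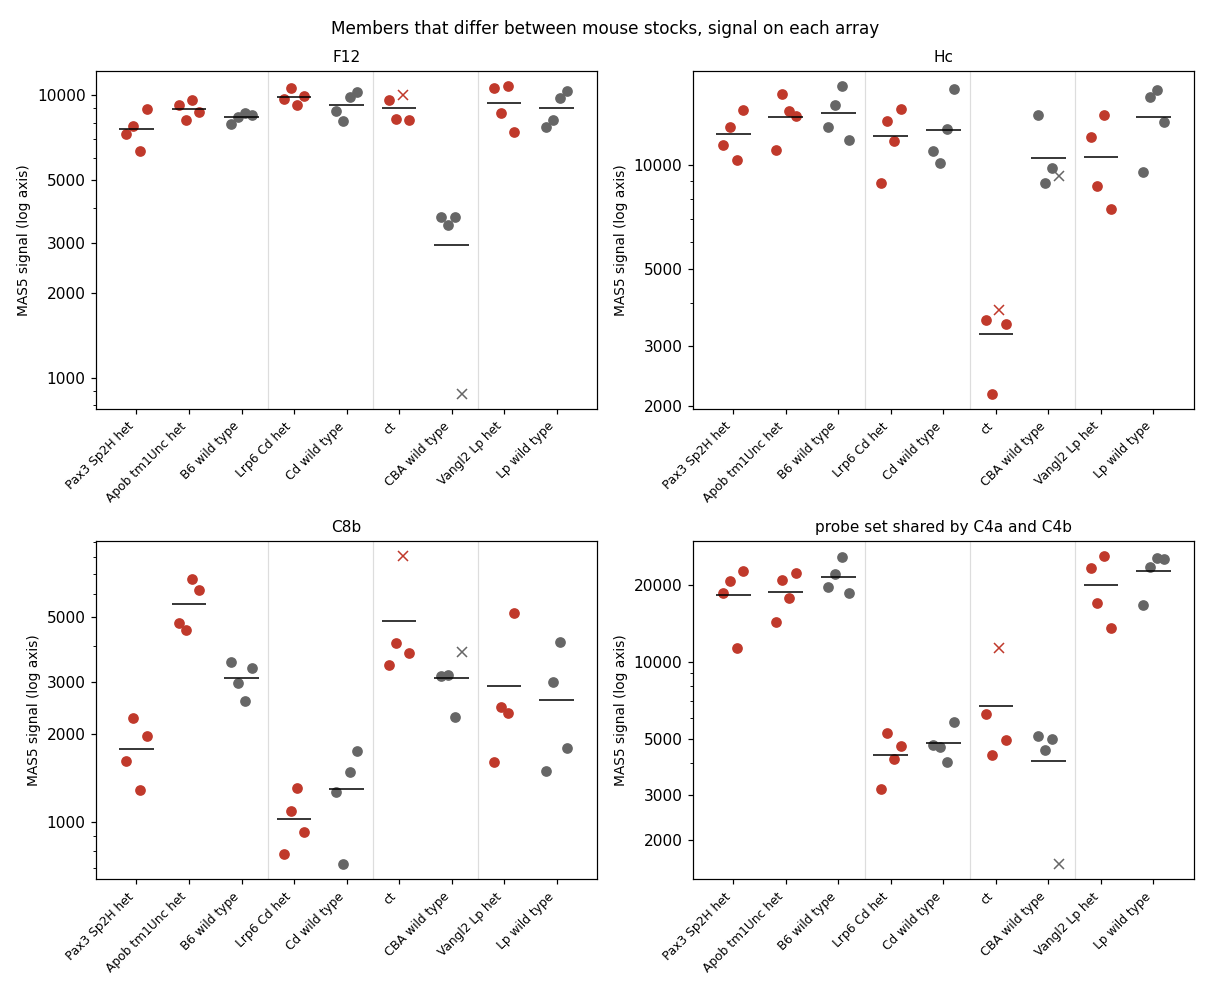
MAS5 signal (log axis) on each array for F12, Hc, C8b and the probe set shared by C4a and C4b, with 4 arrays in each of 9 groups (red mutant, grey wild type), crosses for ct replicate 3 and CBA replicate 4 and a bar at the mean of the 4 signals; the mutant groups stand left of their control group between the vertical lines. F12 is low only on the CBA arrays, Hc only on the ct arrays, C8b is lowest in the Cd stock, and the shared C4 probe set is low in the Cd, ct and CBA groups.

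Hc, the gene for complement C5, fell in ct. Its signals were 3558, 2179, 3810 and 3462 in ct livers, against 13958, 8892, 9811 and 9286 in CBA livers. No ct array came near any other: the 32 arrays of the other groups ranged from 7473 to 16954. Hc was 0.310 times as high in ct as in CBA (log2 difference -1.69 ± 0.22, adjusted p = 2.2e-06). Without the doubtful arrays it was -1.83 ± 0.24 (adjusted p = 5.6e-06), and no left-out array ended the call. C5 is the protein whose cleavage opens the terminal pathway, and Hc is known in mice as a gene for which several inbred strains carry a deficiency. It was 11464, 12936, 10381 and 14464 in Pax3 Sp2H heterozygotes, against 12901, 14947, 16954 and 11873 in B6, and was not called there (-0.20 ± 0.22, adjusted p = 0.999).

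C8b, the beta chain of C8, was low throughout the Cd stock. Its signals were 1264, 720, 1482 and 1742 in Cd wild types, against 3524, 2982, 2589 and 3355 in B6 wild types. Cd heterozygotes had 778, 1088, 1309 and 923, so the 8 arrays of the stock all lay below the 4 B6 arrays. The Cd wild types were 0.405 times as high as B6 (-1.30 ± 0.31, adjusted p = 0.0098), and without Cd wild type replicate 2, the lowest, the adjusted p was 0.079. Against CBA the difference was -1.29 (adjusted p = 0.010), a call that also ended without that array, and against Lp wild types it was -0.94 (adjusted p = 0.118 with 36 arrays and 0.0487 with 34). Between Cd heterozygotes and Cd wild types the difference was -0.29 ± 0.31 and was not called.

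C8a, the alpha chain, is encoded next to C8b. It had 3523, 1716, 4107 and 3997 in Cd wild types, against 9246, 6838, 5962 and 6408 in B6 wild types. Every Cd array was lower than every B6 array, yet the difference of -1.14 ± 0.47 was not called with all arrays (adjusted p = 0.210) and was called with 34 (± 0.36, adjusted p = 0.0445). C8a was also the member that varied most within groups, with a pooled SD of 0.56 on the log2 scale over the 34 arrays and a 4.42-fold range among the 4 Lp wild types (2575, 7577, 11471 and 4400). C8g, the third C8 chain, is encoded elsewhere in the genome and was not called in any comparison. F5 (0.50), Masp1 (0.47), C8b (0.44) and F11 (0.40) followed C8a in spread within groups.

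In Apob tm1Unc heterozygotes C8a and C8b had positive differences and C8g a negative one, although no member passed the test with 36 arrays. Here C8b read 4790, 4534, 6773 and 6174, against 3524, 2982, 2589 and 3355 in B6, and C8a read 9560, 12840, 19217 and 16552, against 9246, 6838, 5962 and 6408. The 2 groups did not overlap for C8a or for C8b. The differences were 0.82 ± 0.31 for C8b (adjusted p = 0.272) and 1.00 ± 0.47 for C8a (adjusted p = 0.432).

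C9, the pore-forming unit, had 24257, 14486, 25438 and 13626 in Apob heterozygotes, against 12297, 11744, 12503 and 9684 in B6. All 4 heterozygotes were above all 4 wild types, 2 of them by a wide margin. The difference of 0.70 ± 0.28 missed the threshold with 36 arrays (adjusted p = 0.307) and passed with 34 (± 0.19, adjusted p = 0.0443), when 2.46% of all genes passed. C9 was the 1 member that did.

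F11, the factor XI protease, had 3194, 6669, 4166 and 5463 in Apob heterozygotes, against 3032, 2987, 1754 and 2963 in B6 (0.84 ± 0.28, adjusted p = 0.196). C4bp, the C4b-binding protein that limits the classical pathway, had 24134, 19338, 21576 and 17747, against 16186, 14451, 12870 and 17493 (0.44 ± 0.15, adjusted p = 0.195). Mbl2, mannose-binding lectin C, had 28186, 29300, 26677 and 28114, against 37668, 34671, 34063 and 32000 (-0.30 ± 0.11, adjusted p = 0.261). In all 3 genes the Apob and B6 arrays did not overlap.

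Over the 34 members, 7 lay wholly above B6 in Apob heterozygotes (C4bp, C8a, C8b, C9, F9, F11 and F13b), against 5.14% of all genes, and 4 lay wholly below (Cfb, F2, Mbl2 and Plg), against 4.25%. The median member did not move (0.00, against 0.02 over all genes). By role, the differences of the 6 terminal complement members were positive for 4 and had a median of 0.62, with C8g (-0.13) and Hc (-0.03) the other 2; none of the 6 passed the test with 36 arrays. F5, the cofactor of the prothrombinase complex, had the lowest difference (-0.61 ± 0.33, adjusted p = 0.513). The hepatocyte marker list had a median of -0.15 and no marker of 7 was called, and the part of cell composition in these values was not tested.

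**Figure D3:**
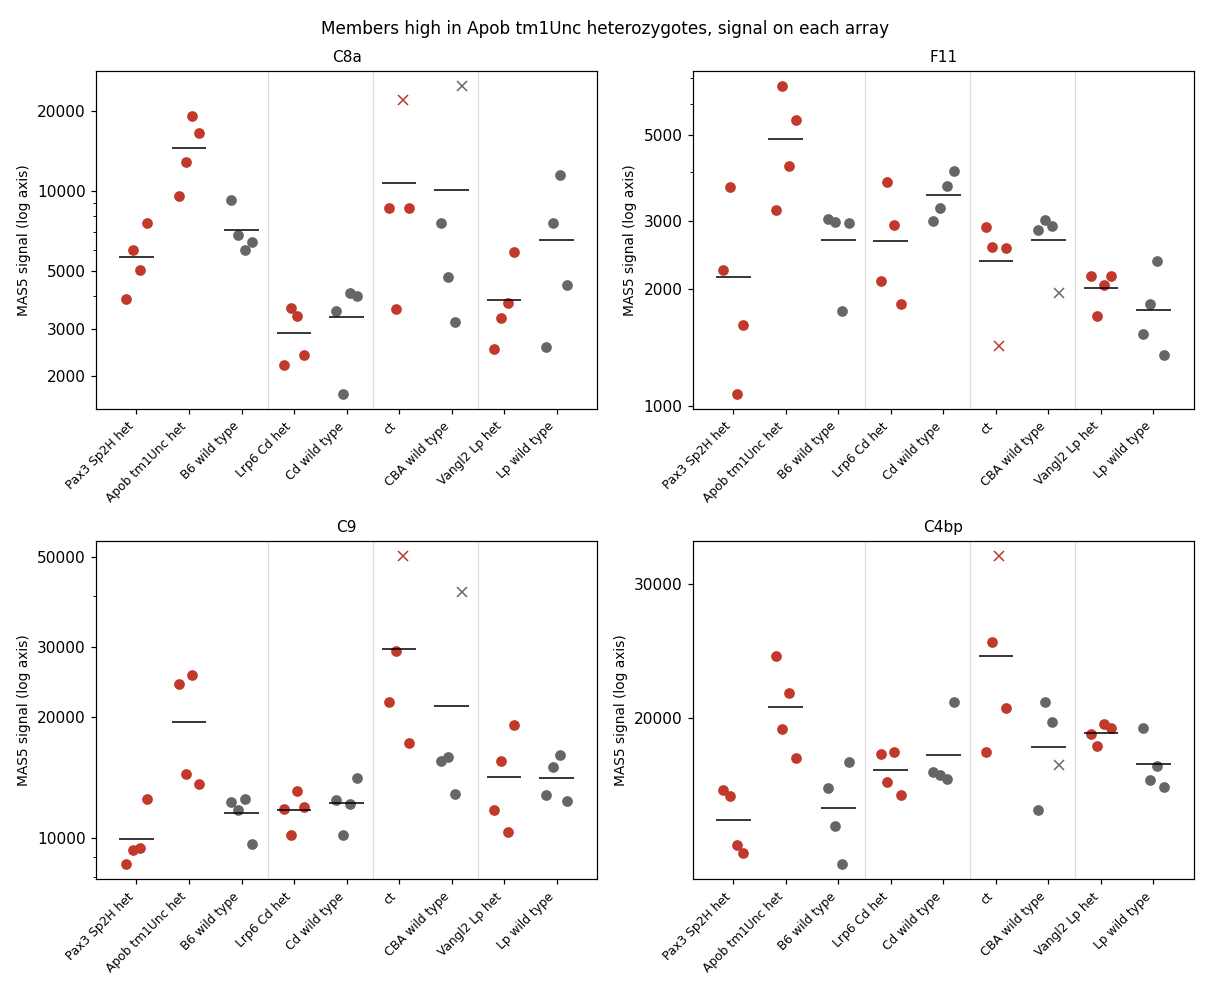
MAS5 signal (log axis) on each array for C8a, F11, C9 and C4bp in the 9 groups, 4 arrays each (red mutant, grey wild type), with crosses for ct replicate 3 and CBA replicate 4 and a bar at the mean signal. In each panel the 4 Apob tm1Unc heterozygotes lie above the 4 B6 wild types beside them. The crossed arrays widen the ct and CBA groups, except the CBA group for C4bp, where the crossed array lies among the others.

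C6 was called in ct on the strength of 1 array. It had 466, 522, 2948 and 553 in ct livers, against 286, 563, 294 and 224 in CBA livers. Only ct replicate 3 stood above the CBA range. The difference of 1.25 ± 0.37 (adjusted p = 0.0355) became 0.47 ± 0.29 without the 2 arrays (adjusted p = 0.50), and the call also ended without CBA replicate 1. In Cd heterozygotes C6 had 483, 519, 365 and 311, against 544, 347, 547 and 572 in Cd wild types, with overlapping arrays (-0.25 ± 0.37).

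The early complement genes lie near each other in the mouse major histocompatibility complex (C2, Cfb, C4a and C4b). Neither C2, the classical pathway protease, nor Cfb, its alternative pathway counterpart, was called in any comparison. Cfb had 14214, 13563, 16264 and 13289 in ct livers, against 13116, 10683, 11906 and 3400 in CBA livers, where the low array is CBA replicate 4 (0.72 ± 0.24, adjusted p = 0.0593, and 0.21 without the 2 arrays).

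The probe set shared by C4a and C4b divided the stocks into a high and a low set. It read 4733, 4616, 4056 and 5805 in Cd wild types and 5132, 4528, 4996 and 1617 in CBA, against 19592, 22064, 25765 and 18498 in B6. Lp wild types, at 16646, 23386, 25522 and 25102, resembled B6. No Cd or CBA wild type array reached the B6 or Lp wild type range, and CBA replicate 4 was again the lowest.

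Tested among all probe sets, the shared probe set was lower by -2.16 ± 0.29 in Cd wild types than in B6 (adjusted p = 5e-06) and by -2.52 ± 0.29 in CBA than in B6 (adjusted p = 2.1e-07; -2.12 with 34 arrays). In Lp wild types it was 2.59 ± 0.29 above CBA (adjusted p = 1.5e-07) and 0.07 ± 0.29 from B6 (adjusted p = 0.963). In the same fit over every probe set, 3.82% of 27022 probe sets were called between Cd and B6 wild types, 6.29% between CBA and B6 and 3.21% between Lp and CBA. The mutant groups followed their stocks: the probe set ranged from 11280 to 22559 in Pax3, 14322 to 22162 in Apob and 13539 to 25794 in Lp heterozygotes, and from 3170 to 5267 in Cd heterozygotes. In ct livers it was 6217, 4301, 11294 and 4951, and 0.74 ± 0.29 above CBA (adjusted p = 0.131), which was 0.06 with 34 arrays. Which of the 2 genes gave the signal cannot be told from a shared probe set.

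Mbl1, mannose-binding lectin A, had 8904, 14023, 27108 and 12340 in ct livers, against 8206, 9213, 7473 and 5930 in CBA livers. Of the ct arrays 1 lay inside the CBA range, and ct replicate 3 was far above the rest. The call in ct (0.91 ± 0.23, adjusted p = 0.0156) ended without the 2 arrays (0.48 ± 0.21, adjusted p = 0.27).

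Masp2, the protease that lectin binding activates, had 3720, 5626, 5386 and 4166 in ct livers, against 2583, 3513, 3113 and 1169 in CBA livers. All ct arrays were above all CBA arrays, and no single left-out array ended the call. The difference was 0.95 ± 0.22 (adjusted p = 0.0078) and 0.54 ± 0.18 without both doubtful arrays (adjusted p = 0.124). The second Masp2 probe set gave 0.21 ± 0.20 with all arrays. That probe set read 2642, 1653, 1738 and 2298 in ct livers, against 1653, 1345, 1527 and 2839 in CBA livers. Its highest value was on CBA replicate 4. Masp1, the partner protease of Masp2, had a difference of -0.90 ± 0.34 on the probe set tested (adjusted p = 0.0929) and between -0.17 and 0.46 on its 4 other probe sets, so its probe sets disagreed.

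Mbl2 had the smallest p of any member in Pax3 Sp2H heterozygotes. It had 25999, 24936, 21699 and 30308 there, against 37668, 34671, 34063 and 32000 in B6. The groups did not overlap, and the difference of -0.43 ± 0.11 was not called (adjusted p = 0.609; 0.159 with 34 arrays). In Lp heterozygotes it had 31014, 39217, 33229 and 39272, against 28980, 30548, 31036 and 30312 in Lp wild types (0.23 ± 0.11, adjusted p = 0.693).

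The regulators Cfi, which cleaves C3b and C4b, and Vtn, vitronectin, which blocks pore assembly, were called higher in ct. Cfi had 32237, 33644, 34955 and 31103 in ct livers, against 26330, 27210, 27726 and 18609 in CBA livers (0.42 ± 0.13, adjusted p = 0.0432). The groups did not overlap, with CBA replicate 4 well below the others. Without the 2 arrays the difference was 0.25 ± 0.12 (adjusted p = 0.338). Vtn had 39964, 54745, 59555 and 35965 in ct livers, against 35513, 36669, 36262 and 22019 in CBA livers. It gave 0.54 ± 0.15 (adjusted p = 0.0243) on the tested probe set and 1.38 ± 0.48 on the other, which read 1500 on CBA replicate 4 and 30296 to 31061 on the remaining CBA arrays. With 34 arrays the Vtn probe sets gave 0.25 and 0.15.

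Among the coagulation proteases, F2 (prothrombin) and F10 (factor X) were called in ct. F2 had 39902, 48497, 50361 and 36904 in ct livers, against 34588, 34911, 36113 and 27070 in CBA livers (0.40 ± 0.12, adjusted p = 0.035), and 0.24 ± 0.11 without the 2 arrays. F10 had 17854, 21404, 25705 and 16286, against 16392, 15732, 16575 and 4843 (0.74 ± 0.23, adjusted p = 0.0471). The F10 difference rested on CBA replicate 4: it was 0.18 ± 0.14 with 34 arrays. The 2 dimmer F10 probe sets gave -0.17 and -0.14 with all arrays. On these, CBA replicate 4 read 1217 and 493, below the other CBA arrays at 1533 to 2031 and 1133 to 1584. The ct arrays read 1146 to 1772 and 790 to 1284.

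F7, the factor VII protease that binds tissue factor, was high in the Cd stock. It had 6170, 5435, 6691 and 6456 in Cd wild types, against 3770, 4386, 5124 and 2866 in B6 wild types. Cd heterozygotes had 6633, 7242, 6482 and 6985, so no array of the stock fell to the B6 range. The difference from B6 was 0.64 and was called with 34 arrays (± 0.20, adjusted p = 0.0447) but not with 36 (± 0.32, adjusted p = 0.353). Against CBA the outcome was the reverse: F7 was called with 36 arrays (1.08 ± 0.32, adjusted p = 0.0432) and not with 34 (0.49 ± 0.22, adjusted p = 0.221), and that call ended without CBA replicate 4 or any 1 of the Cd wild type arrays. F10, the neighbour of F7, differed by 0.20 ± 0.23 between Cd and B6 wild types (adjusted p = 0.781).

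F11 distinguished the Cd and Lp wild types. It had 3007, 3231, 3694 and 4038 in Cd wild types, against 1532, 1839, 2366 and 1354 in Lp wild types. The groups were apart, with a difference of 0.99 ± 0.28 that lay just outside the threshold with 36 arrays (adjusted p = 0.0518) and inside it with 34 (± 0.26, adjusted p = 0.0175). In Cd heterozygotes F11 had the smallest p of the members, and it was not called (2105, 3782, 2921 and 1835, against the Cd wild type values above, -0.44 ± 0.28). F9, the haemophilia B factor, and F5 were not called in any comparison.

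None of the 3 fibrinogen chains was called in any of the 11 comparisons, and Fgg was called by the F test over the mutant effects with 34 arrays only. In Pax3 Sp2H heterozygotes Fgb had 43468, 46380, 29240 and 44748, against 53625, 50276, 47158 and 52308 in B6. Fgg had 37798, 38986, 27777 and 37734, against 50680, 44896, 43719 and 49214. Both chains lay wholly below B6, Pax3 replicate 3 lowest in each. The differences were -0.29 for Fga, -0.33 for Fgb and -0.42 for Fgg (adjusted p between 0.819 and 0.938). Under quantile normalization the signs of Fga (0.04) and Fgb (0.03) turned and that of Fgg (-0.08) did not.

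In Lp heterozygotes Fgb and Fgg were the members that lay wholly above their controls, 2 of 34 against 2.34% of all genes. Fgb had 53185, 49886, 55866 and 59429, against 42705, 44561, 48696 and 46931 in Lp wild types (0.25 ± 0.16, adjusted p = 0.758). Fgg had 49248, 51466, 46527 and 55269, against 39197, 40069, 45878 and 42255 (0.27 ± 0.16, adjusted p = 0.746). In ct the fibrinogen values were highest on ct replicates 2 and 3, with 64058 and 84723 for Fgb, against 44119 to 58543 in CBA. The Fga, Fgb and Fgg windows printed above share no single motif among all 3. F13b, the carrier chain of the fibrin-crosslinking factor XIII, differed by -0.73 ± 0.24 between ct and CBA (adjusted p = 0.0606) and by -0.14 with 34 arrays.

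Serpinc1, antithrombin, was the inhibitor whose mutant effects differed most. It had 37443, 37740, 31802 and 37918 in Pax3 Sp2H heterozygotes, against 48231, 44948, 44274 and 50344 in B6 (-0.38 ± 0.13, adjusted p = 0.804). It had 48414, 69962, 59849 and 43487 in ct livers, against 39551, 43098, 42222 and 35104 in CBA livers (0.45 ± 0.13, adjusted p = 0.0262). Neither pair of groups overlapped, and the directions were opposite. Without the 2 arrays the ct difference was 0.34 ± 0.13 (adjusted p = 0.207). In Lp heterozygotes Serpinc1 had 50432, 54732, 46301 and 54500, against 42123, 40814, 47549 and 43821 in Lp wild types. The groups overlapped by 1 array, the difference was 0.24 ± 0.13 (adjusted p = 0.729), and its sign turned under quantile normalization (-0.01). Serpind1, Proc and Pros1 were not called in any comparison.

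Plg, plasminogen, and Serpinf2, the plasmin inhibitor alpha-2-antiplasmin, were not called. Plg had 49981, 49790, 53639 and 41539 in ct livers, against 42763, 36843, 38966 and 1685 in CBA livers. The CBA replicate 4 value alone made the fold large: the difference was 1.43 ± 0.50 (adjusted p = 0.0712) and 0.25 ± 0.14 without the 2 arrays. Plg is named after its values were seen, as are the contact-system, fibrinogen and other genes above that were not called.

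Of the 10 calls in ct, then, F12 and Hc were called again with 34 arrays, 2 of 34 members against 1.79% of all genes. The calls of F2, F10, Cfi, Vtn and Serpinc1 also ended without ct replicate 2 alone, without ct replicate 3 alone or without CBA replicate 4 alone, and that of Mbl1 without either of the last 2. The median member difference was 0.38 with 36 arrays and 0.19 with 34, against 0.01 and -0.03 over all genes, and 27 and 26 of the 34 were positive. Relative to the CBA mean, the member medians of ct replicates 1 to 4 were 0.23, 0.32, 0.60 and 0.07. After quantile normalization they were 0.19, -0.17, 0.18 and 0.06, and ct replicate 2, which turned, is among the 34 arrays. The high percentile of signal given for Pax3 below was 73152 and 68620 on ct replicates 2 and 3. It was 48339 and 44303 on ct replicates 1 and 4. On CBA replicates 1 to 3 it was 42756 to 46729, with 63275 on CBA replicate 4. Marker lists moved in the same comparison. With 36 arrays 4 of 8 Kupffer cell markers were called higher in ct (median 0.95) and 8 of 17 acute-phase genes outside the members (median 0.96), and 0 of 7 hepatocyte markers (median 0.25). With 34 arrays 0 of each list were called, with medians of 0.29, 0.44 and 0.31. The summed Kupffer marker signal was 82557 on the highest ct array and 12579 to 18089 on ct replicates 1, 2 and 4, against 12408 to 16963 on the CBA arrays. The summed acute-phase signal was 359548 to 431570 on ct replicates 1, 2 and 4, above 255761 to 299364 on CBA replicates 1 to 3. No marker of these lists was at 0, as no signal of the series was, and the part of these cells or of inflammation in the member differences was not tested.

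**Figure D4:**
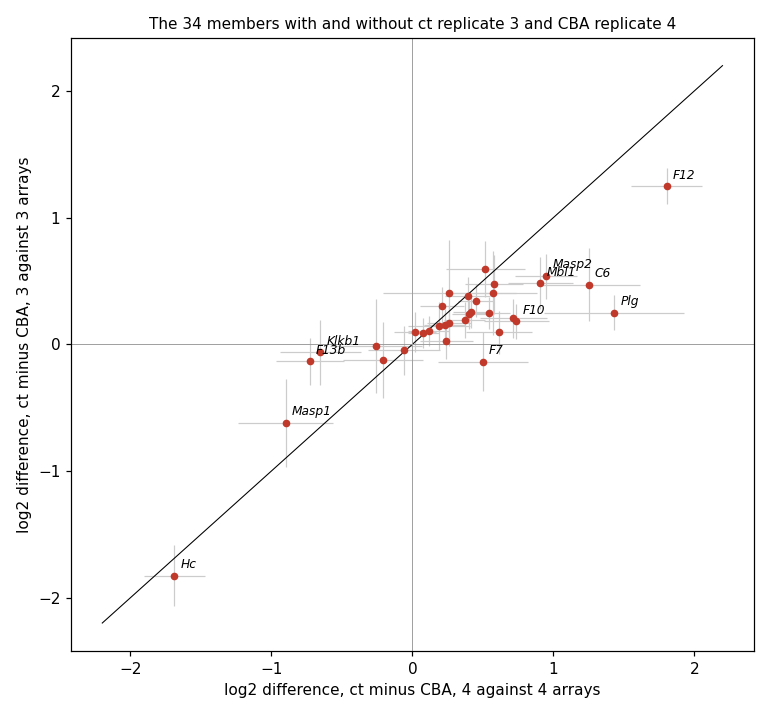
Log2 difference of each of the 34 members between ct and CBA with 4 against 4 arrays (horizontal) and with 3 against 3 arrays after ct replicate 3 and CBA replicate 4 were left out (vertical), with SE bars and the line of equality. F12 and Hc keep large values on both axes, and Plg, C6 and F10 lie well below the line of equality.

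In Pax3 Sp2H heterozygotes most members had negative differences and none was called. The difference was negative for 31 of 34, with a median of -0.28, against 0.01 over all genes, and 0 members lay wholly above B6 (all genes 2.2%) and 11 wholly below (C8b, Cfi, F2, F10, Fgb, Fgg, Kng1, Mbl2, Plg, Serpinc1 and Vtn), against 3.18% of all genes. C8b was the largest, with 1612, 2263, 1290 and 1963, against 3524, 2982, 2589 and 3355 (-0.82 ± 0.31, adjusted p = 0.819). The heterozygotes' own medians over the members were -0.24, -0.15, -0.58 and -0.18 relative to the B6 mean, so that replicate 3 was the lowest and none was above 0.

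The brightest signals of the Pax3 arrays were lower too. The 99.9th percentile of signal was 31111 to 39862 on the Pax3 arrays, below the 44375 to 48884 of the B6 arrays, and the hepatocyte marker list had a median of -0.38 with 0 of 7 called. After quantile normalization, which gives all arrays the same distribution, the member median was -0.07, 25 of 34 were negative and 2 had an unadjusted p under 0.05. The direction of C8b, Mbl2 and Serpinc1, the members with the smallest p in this comparison, did not turn under that scaling. That of Fgb, which lay wholly below B6, turned, as did that of Fga.

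The Lp heterozygotes had small differences of mostly the other sign. The median member difference was 0.07 (all genes -0.03), 22 of 34 were positive, and the hepatocyte list had a median of 0.28 with 0 of 7 called. Under quantile normalization the median was -0.03 and 14 of 34 were positive, so the sign of the median flipped. Hc had 12105, 8731, 13975 and 7473, against 9566, 15750, 16481 and 13388 in Lp wild types, with overlapping arrays (-0.40 ± 0.22, adjusted p = 0.735). In Cd heterozygotes the median was -0.02, and the differences ran from -0.44 (F11) to 0.16 (C2).

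**Figure D5:**
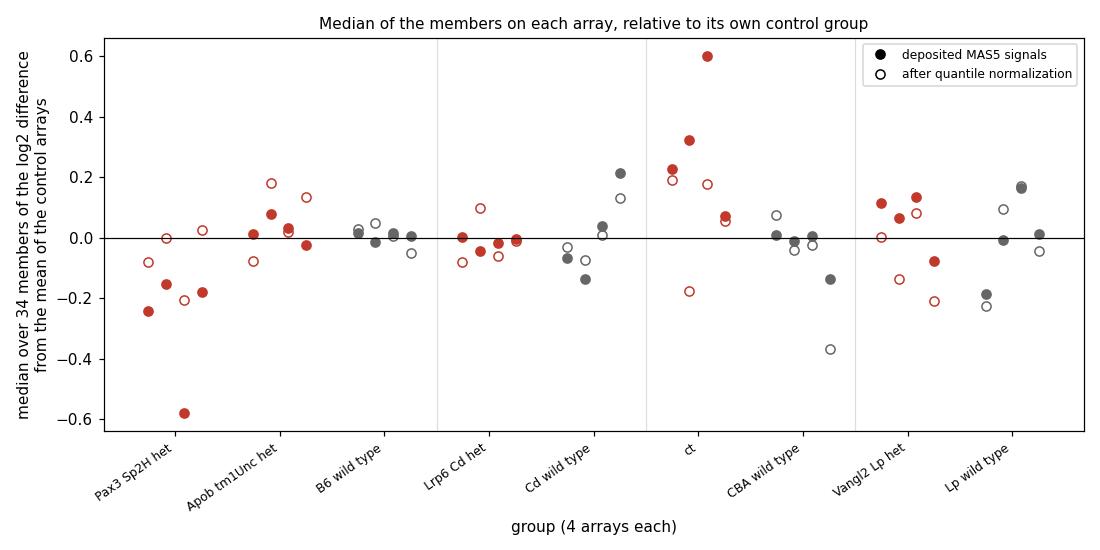
Median over the 34 members of each array's log2 difference from the mean of its control group (points, 4 arrays in each of 9 groups, red mutant and grey wild type), from the deposited signals (filled) and after quantile normalization (open). The 4 Pax3 Sp2H arrays lie at -0.24, -0.15, -0.58 and -0.18 from the deposited signals and nearer 0 after normalization.

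Other genes of the 2 cascades were followed as a list of 51 outside the members, of which 38 were tested. In CBA against B6, 6 of the 38 were lower and 0 higher, where 7.73% of all genes were called in either direction. They include Cfp, properdin, which stabilises the alternative convertase (-2.0), C1qc (-1.48) and C1qb (-1.45), chains of C1q, which macrophages make, and Ggcx (-1.36), the carboxylase that modifies the vitamin K-dependent factors. Kupffer markers fell in the same comparison, 4 of 8 called lower with a median of -0.90, and their part in the Cfp and C1q values was not tested. With 34 arrays 7 of the 38 were lower, and the differences were -1.21 for Cfp, -0.94 for C1qc, -0.83 for C1qb and -1.38 for Ggcx.

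Ggcx was higher than CBA in Cd (1.49) and Lp wild types (1.11). Hgfac, the activator of hepatocyte growth factor, was higher than CBA in both as well (1.12 and 1.17), and by 0.66 and 0.70 with 34 arrays. Tfpi, the inhibitor of the tissue factor pathway, was higher than B6 in Cd (0.90) and Lp wild types (1.02). C3ar1, the receptor for C3a, was lower than B6 in Cd wild types (-1.09), and Cfhr2 was lower than B6 in Lp wild types (-0.84). Colec11, a collectin of the lectin pathway, was higher in Cd than in Lp wild types (0.71). In ct against CBA 6 of the 38 were higher and 1 lower, against 3.4% and 3.25% of all genes: Cfp (2.15), C1qb (1.56) and C1qc (1.39) rose and F3, tissue factor, fell by 1.46. With 34 arrays none of these 4 was called, and 2 were higher, where 1.79% of all genes were called in either direction. They were Cfhr2 (1.03), a factor H-related gene, and Fcna (0.74), ficolin A. In CBA, the control, both were called lower than in B6 with 34 arrays (-0.84 and -0.60). Cfhr2 was then also lower than B6 in Cd wild types (-0.65). In the other 4 mutant comparisons 0 of the 38 were called.

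Transcription factors and receptors that govern these genes were followed as a list of 11, of which 10 were tested. Hnf4a, a nuclear receptor of hepatocytes, was not called in any comparison, with differences between -0.36 (Pax3) and 0.19 (Lp heterozygotes). Il6st, the signalling subunit of the interleukin 6 receptor, was higher in ct than in CBA (0.56 ± 0.16, adjusted p = 0.0293), lower in CBA than in B6 (-0.62 ± 0.16, adjusted p = 0.0124) and lower in Cd wild types than in B6 (-0.70 ± 0.16, adjusted p = 0.0061). Il6ra, the ligand-binding subunit, was lower in Cd wild types than in B6 (-1.19 ± 0.34, adjusted p = 0.0422). The ct call of Il6st ended with 34 arrays, and the other 3 calls held. No other gene of the list was called with 36 arrays in the 11 comparisons; with 34, Cebpb, a C/EBP factor, was lower in Lp wild types than in B6 (-1.05 ± 0.28, adjusted p = 0.021).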

How the data were processed

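Liver RNA of 36 mice (9 groups of 4) was hybridised to 1 Affymetrix array each. Per the submitters' processing notes the authors used MAS5, version not given in the sources used here, and the deposited values are linear signal intensities. Each array's trimmed mean was found to be 500. Values were taken as log2(signal + 23). Probe sets with a mean log2 at or under the 40th percentile (6.40, a signal of 61.7) were left out, and each gene was represented by its brightest probe set, judged by mean log2 value. Of 45101 probe sets, 64 were controls, 34945 named 1 gene, 932 named several and 9160 named none, and 34741 Entrez identifiers were found in the current gene table. limma 3.58.1 in R 4.3.3 fitted 1 mean per group over 36 arrays (27 residual degrees of freedom, eBayes with trend), with Benjamini-Hochberg adjustment over 13188 genes. The C4a and C4b probe set was tested in a fit of 27022 probe sets. The p-values set group differences against the spread between mice within groups, pooled over the 9 groups and moderated across genes. With 1 array per mouse, that spread includes differences in RNA quality and labelling between arrays.

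The members and gene lists were chosen with earlier results of these data known. Values on every array are given for members called in a mutant comparison with 36 or 34 arrays, members called by the wild type F test and the 3 members with the smallest p where a mutant comparison called none, and of other pathway genes at most 4 called ones per comparison. Other genes named were chosen after their values were seen. In simulated data for the Pax3 comparison over 13188 genes, 66% of 2-fold and 93% of 4-fold changes were recovered with 6 false calls. The highest correlation between 2 arrays was 0.979, so no array was treated as a duplicate. Whether replicate numbers shared by a mutant group and its control mark pairs is not known, and the main fit used no pairing. Deviations from the group means of same-numbered arrays correlated at 0.203, 0.201, -0.021 and 0.107 for ct replicates 1 to 4. In the other mutant comparisons these correlations ran from -0.141 (Lp heterozygote replicate 4) to 0.182 (Lp heterozygote replicate 3). Alternatives were another scaling, offset or filter, all probe sets, array weights, fits of the compared arrays, the replicate block and left-out arrays. The number of arrays limits the precision.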

Additional observations from a re-analysis of the deposited data

Results flagged for a closer look

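The search covered 65 groups of 4 arrays, over 17 members named in the text and the probe set shared by C4a and C4b. In 10 of them the gap of 1 array to its neighbour exceeded Dixon's critical share of the group's range. That share is passed by chance in about 1 in 20 groups of genes chosen without regard to their values. The genes here were named from these same arrays, several through calls that rested on CBA replicate 4 or ct replicate 3. The count therefore cannot be set against that rate. Of the 10 flagged, 6 were on CBA replicate 4, where F12 (879), F10 (4843), F2 (27070), Cfi (18609), Vtn (22019) and the C4a and C4b probe set (1617) were all low. Its GAPDH 3' to 5' ratio was 52.5, and the part of RNA quality in these signals was not tested. C6 stood out at 2948 on ct replicate 3 and at 347 on Cd wild type replicate 2. Serpinc1 was low at 31802 on Pax3 Sp2H replicate 3, and F11 was low at 1754 on B6 replicate 3.

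The effects of the 5 mutant groups against their controls differed by limma's moderated F test for Hc (adjusted p = 0.00407), F12 (0.00444), C8b (0.0127), Serpinc1 (0.0418) and F11 (0.0437). The Pax3 and Apob effects share the B6 arrays. For F12 the group that differed was the CBA control.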

How the results depend on the processing

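In ct against CBA, 10 calls became 5 with quantile normalization, 6 with median centring, 5 with no filter, 3 with array weights, 1 with the compared arrays only, 2 without ct replicate 3 and CBA replicate 4, and 2 with quantile normalization without them. In Apob the counts were 4 with array weights, 2 with the compared arrays, and 1 and 2 without those arrays on the deposited and the quantile scale; in Pax3 array weights gave 1. CBA against B6 gave 3 with quantile normalization, 2 with an offset of 8, 3 with array weights and 0 with the compared arrays. Cd against B6 wild types gave 3 with array weights, 3 without the 2 arrays on either scale and 5 with the compared arrays, and Lp against B6 gave 1 on the quantile scale without them. With the compared arrays Cd and Lp against CBA gave 0 each. Cd against Lp wild types gave 1 with median centring, 3 with weights, and 2 with the compared arrays or without the 2 arrays on either scale. The F test over wild types gave 6 with weights. That over mutant effects gave 3 with median centring, no filter or without shared-target probe sets, 13 with weights and 8 without the 2 arrays. Shares of all genes called are given above only for the fits to 36 and 34 arrays. The other counts here, and those below with arrays left out, cannot show whether members or all genes shifted. The cause of these shifts was not tested. Leaving out each array in turn gave 3 (without ct replicate 3) to 16 calls (without ct replicate 1) in ct, 1 to 5 in CBA against B6, 0 (without Cd wild type replicate 2) to 1 in Cd against B6, 1 to 6 in Cd and 1 to 4 in Lp against CBA, 0 to 1 in Cd against Lp, 1 to 5 and 2 to 8 in the F tests, and 0 in every other comparison. With the replicate block ct had 8 calls and Cd against Lp 1, and whether the numbers mark pairs is not known.

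Of the alternatives for named members, 555 kept direction and side of the threshold, 87 lost the call, 25 gained one and 4 turned. The last were Vtn in ct (-0.003, quantile scale without the 2 arrays), Serpinc1 in Lp heterozygotes (-0.0118 and -0.0114, quantile scale with and without all arrays) and the C4 probe set in Cd against CBA (-0.0345 without the 2 arrays). Median centring moved the median of all genes by over 0.1 only between Cd and Lp wild types (0.12). Quantile normalization without the 2 arrays and the C4 test were added after the data were seen.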
